A study of Mus musculus with 16 samples.

Results

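ES/PA6 co-cultures that had received FGF2 were compared with PA6 mono-cultures that had received FGF2, both at day 7, with 3 arrays in each group, 6 of the 16 arrays in all. The genes described were those whose probe had a detection p-value below 0.05 on all 3 arrays of either group, which gave 18583 of the 45281 probes on the array and 13304 genes of 30854 target names. The co-cultures held murine embryonic stem (ES) cells of a τ-EGFP knock-in line, in which neurons switch on a green fluorescent reporter from the τ locus, seeded on a confluent layer of PA6, a stromal cell line of mouse bone marrow. The mono-cultures held PA6 cells alone, and every culture was kept in a serum-free medium. Per the labels, FGF2 was recombinant, at 20 ng/ml and for 3 days, although another label of the same samples speaks of its presence over all 7 days. The study's methods name human FGF2, added at the start and withdrawn before the end. For reference, the series also holds co-cultures without growth factors (2 arrays) or with recombinant BMP4 at 10 ng/ml (2 arrays), and PA6 mono-cultures of both kinds (3 arrays each). The study's methods state a lower dose of BMP4 than the labels. All ES cells were of the same line, and all groups held PA6 cells from the same source. Each biological replicate was 1 well of each condition.

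PA6 cells secrete factors and matrix on which ES cells leave the pluripotent state without serum, and in this setting many of them become neural. FGF2 signals through receptor tyrosine kinases and the ERK cascade, and in mouse ES cells this cascade promotes exit from the naive state, whereas in the embryo it takes part in forming mesoderm, the germ layer from which endothelium and blood arise. The comparison asks which transcripts the layer of ES-derived cells brought into the FGF2 cultures and which belonged to the stroma. RNA was taken from whole wells, so that a co-culture value mixes both cell kinds, and fewer cells of a type and less RNA per cell cannot be told apart.

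Between 18487 and 21261 probes were detected on the co-culture arrays and between 17173 and 18139 on the PA6 arrays. Correlations across genes ranged from 0.973 to 0.979 among the co-culture arrays, from 0.984 to 0.986 among the PA6 arrays and from 0.684 to 0.714 between the groups. The median SD of a gene between arrays of a group was 0.244 in co-cultures and 0.188 in PA6 on the log2 scale. All levels below are normalised log2 intensities, and a difference is that of the co-culture mean minus the PA6 mean with its standard error (SE). Intensities of different probes are not comparable as amounts, so levels are compared between cultures and not between genes.

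Of the 13304 genes, 9746 (73.3%) were detected on all 6 arrays. A further 1584 genes (11.9%) were detected on all 3 co-culture arrays and on no PA6 array, and 358 (2.69%) on all 3 PA6 arrays and on no co-culture array. The remaining genes were detected on all arrays of one group and on some of the other. A gene detected in a single kind of culture entered through the group where it was bright, so its difference was largely set by the choice of members. For such a gene the difference is given as a bound, written as at least so many fold, which compares the bright mean with the lowest signal that counted as detected on the arrays of the dim group (6.23 to 6.87 over the 6 arrays). No p-value is given for such a bound, since the gene had to differ. For a gene detected on some arrays of the dim group, the difference is that of the fit, and its undetected arrays stand at background. Such a gene also entered through its bright group, so its p-value would be partly set by that choice.

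A gene was called different at a Benjamini-Hochberg adjusted p under 0.1 and a log2 difference over 1 in size, by limma. With FGF2, 6664 genes (50.1%) were called, 3368 of them higher in co-cultures (25.3%) and 3296 lower (24.8%). These shares over all genes are the background for the counts of the gene lists below. For 10006 genes (75.2%) the 3 co-culture arrays and the 3 PA6 arrays did not overlap, 4942 of them with the co-cultures above (37.1%) and 5064 with PA6 above (38.1%). Among the 9746 genes detected on all 6 arrays, which is the set that did not depend on absence in one group, 1480 were higher and 2276 were lower (38.5% called). The largest differences were on the side of the co-cultures: 557 of the higher genes differed by over 16-fold in the fit, against 59 of the lower ones. A bound over 16-fold was reached by 200 higher and 5 lower genes. The median over all genes was -0.03, and it was -0.21 when arrays were scaled to their medians and 0.11 with cyclic loess. Of the called genes 50.5% were higher, a share that was 44.9% under median scaling and 56.4% with cyclic loess. Where a called gene had other probes, 2332 of 2479 of these (94.1%) pointed the same way.

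**Figure D1:**
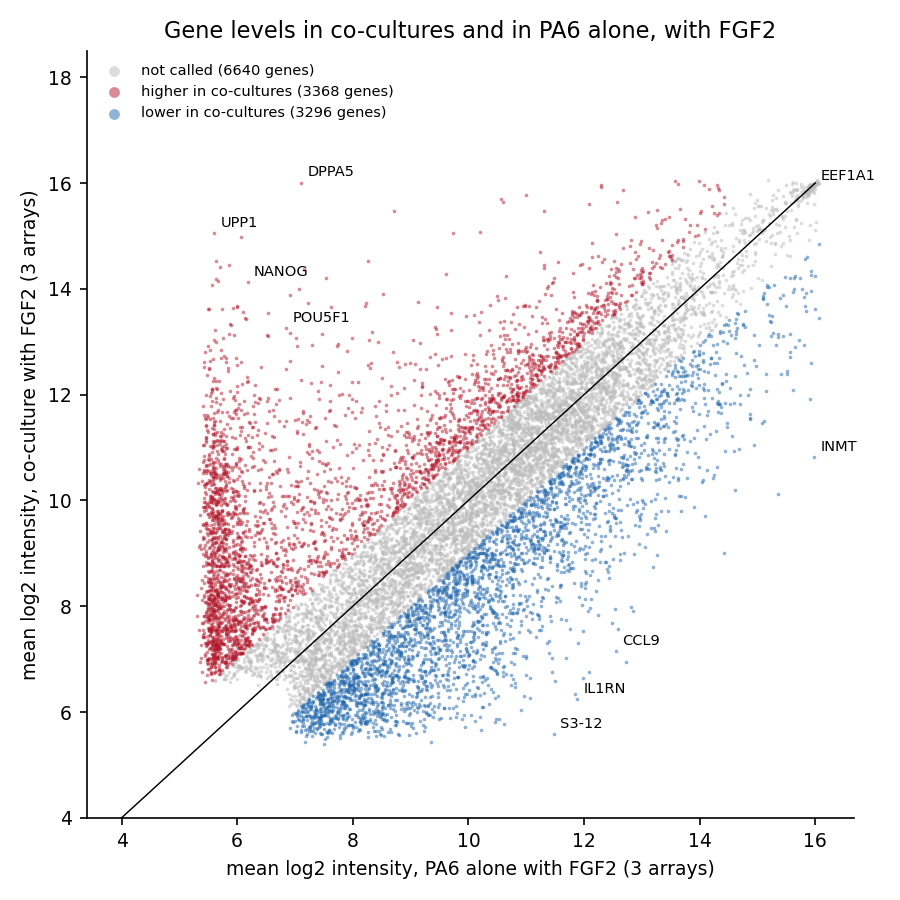
Mean normalised log2 intensity of each of the 13304 genes in PA6 mono-cultures with FGF2 (horizontal axis, 3 arrays) and in co-cultures with FGF2 (vertical axis, 3 arrays), with called genes in red (3368 higher) and blue (3296 lower) and the line of equal levels. The column of red points at the left edge holds genes that were not detected in PA6 cells, and EEF1A1 lies on the line.

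The 10 genes with the largest rise in the fit included genes of metabolism, of pluripotent cells and of neural cells. UPP1, a uridine phosphorylase of pyrimidine salvage, read 15.12, 15.26 and 14.77 on the co-culture arrays and 5.78, 5.70 and 5.34 on the PA6 arrays. It was at least 308-fold higher in co-cultures. No PA6 array detected it. The glucose transporter SLC2A3 read 15.17, 15.05 and 14.73 against 6.62, 5.85 and 5.71, and was at least 294-fold higher. FBXO15, an F-box gene that is a classical target of the pluripotency factors, read 14.26, 14.97 and 14.35 against 5.55, 5.48 and 5.85, a difference of at least 214-fold. In each of these 3 genes the lowest co-culture array lay far above the highest PA6 array, a separation set by their choice for size and for groups without overlap. DPPA5 (Dppa5a), a marker of undifferentiated ES cells, was detected on 2 of the 3 PA6 arrays as well, with 15.97, 16.07 and 15.98 against 7.32, 7.48 and 6.53, and its fitted difference was 8.90 ± 0.25. Its co-culture arrays were among the brightest signals and its other probe gave 9.91, so that its place in the order is uncertain. The other genes among the 10 with the largest rise were NDN (at least 203-fold), FXYD6 (198), BEX4 (169), SOX11 (164), NIPSNAP1 (156) and DPPA4 (114), each with a bound of the same kind. NDN is an imprinted gene of postmitotic neurons, FXYD6 a regulator of the sodium pump in brain, SOX11 a transcription factor of neural precursors and immature neurons, and DPPA4 a chromatin protein of pluripotent cells.

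Of 20 genes listed as pluripotency factors, 19 were measured, and 17 of these were higher in the co-cultures, with a median difference of 5.14 (4.23 with undetected genes at their bound) beside -0.03 over all genes. No PA6 array detected 12 of the 19, which had to be higher. POU5F1, which encodes OCT4, read 13.31, 13.33 and 13.12 in co-cultures and 6.68, 6.75 and 7.11 in PA6 cells. Its fitted difference was 6.40 ± 0.37. With 1 of the 3 PA6 arrays detecting it, POU5F1 entered through the co-cultures. NANOG, the homeobox factor of naive pluripotency, read 14.14, 14.28 and 13.97 against 6.01, 6.75 and 5.79, at least 163-fold higher. The orphan receptor ESRRB read 13.55, 13.71 and 13.57 against 5.45, 5.62 and 5.46, at least 113-fold higher. The co-culture arrays lay close together for all 3 genes, far above every PA6 array. SOX2, shared by pluripotent and neural cells, was at least 18.8-fold higher. KLF4, KLF2 and TBX3 were also detected on every PA6 array. KLF4 read 9.57, 11.01 and 10.58 against 9.79, 9.61 and 10.02, so that the groups overlapped, and its difference of 0.58 ± 0.46 did not pass the test (adjusted p = 0.271). KLF2 differed by 0.39 ± 0.32 (adjusted p = 0.286). TBX3, a T-box factor that sustains self-renewal and also acts in mesenchyme, read 9.28, 10.97 and 10.46 against 8.87, 8.45 and 8.70 and was called with 1.57 ± 0.35 (adjusted p = 0.00113).

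Of 16 listed genes of the primed epiblast and early germ layers, 8 passed the detection rule, of which 7 were called higher in co-cultures, all 7 undetected in PA6, and 1 lower. NODAL, the ligand that patterns the epiblast, was at least 38.2-fold higher, and LEFTY1, its secreted inhibitor, at least 26.3-fold. OTX2, a factor of primed epiblast and forebrain, read 12.28, 10.49 and 10.41 in co-cultures against 5.74, 5.89 and 5.77 (at least 19.4-fold), with co-culture replicate 1 the highest. Brachyury (T), the marker of nascent mesoderm, read 7.76, 7.99 and 7.41 against 5.51, 5.53 and 6.03, which allows a bound of at least 1.91-fold. GATA6, a factor of primitive endoderm that mesenchymal cells also use, was the gene that was lower, by -3.17 ± 0.19.

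All 15 measured neuronal genes and 9 of the 10 measured neural progenitor genes were higher in the co-cultures, but 11 and 7 of these lists' genes were detected on no PA6 array and could only come out higher. The median differences were 4.46 (3.27 with bounds) and 3.59 (2.65). SOX11 read 14.09, 14.13 and 14.20 against 5.72, 5.63 and 5.64. STMN2, a microtubule regulator of growing axons, read 12.89, 13.10 and 12.98 against 5.74, 5.56 and 5.61, at least 73.8-fold higher. MTAP2 (Map2), the dendritic microtubule protein, was at least 60-fold higher and DCX, which marks migrating young neurons, at least 33.9-fold. MAPT, which encodes τ and whose locus carries the reporter in these ES cells, was at least 16.6-fold higher. None of these 5 genes was detected on any PA6 array. HES5, a NOTCH target that maintains neural progenitors, read 10.56, 10.39 and 10.61 against 5.83, 5.73 and 5.87, at least 13.3-fold higher. NES, an intermediate filament of progenitors, was at least 9.12-fold higher and ZIC1, a zinc finger factor of the dorsal neural tube, at least 14.5-fold. Neural and pluripotency transcripts were therefore both present in the same co-culture RNA, and these arrays do not tell whether the same cells held them.

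Cell cycle genes were higher in co-cultures in 17 of 22 measured cases and lower in 2, with a median of 4.30, and 7 of the 22 were detected on no PA6 array. TOP2A, the topoisomerase of dividing cells, read 13.76, 13.68 and 13.45 against 5.94, 6.05 and 5.80, at least 115-fold higher. CCNB1, the mitotic cyclin, was at least 109-fold higher and MKI67, a proliferation marker, at least 29.1-fold. PA6 arrays detected none of these 3 genes. The 2 lower genes were inhibitors of cyclin-dependent kinases, CDKN2A (-1.79 ± 0.26) and CDKN2B (-1.15 ± 0.24). Another inhibitor, the imprinted CDKN1C, was at least 118-fold higher, with 13.48, 13.52 and 14.02 against 6.21, 6.18 and 5.61.

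Endothelial genes were mixed. Of the 21 listed, 10 passed the detection rule, 6 of which were higher and 3 lower. No PA6 array detected 3 of the 10, which could only come out higher. The median of 1.68 was 0.51 with undetected genes at their bound. PECAM1, an adhesion molecule of endothelium that mouse ES cells also carry, read 10.49, 11.10 and 10.29 against 5.83, 5.78 and 5.72, at least 14.3-fold higher. EGFL7, a secreted factor of embryonic vessels, was higher by 4.05 ± 0.28, and ROBO4, a receptor of mature endothelium, by at least 1.44-fold. Another EGFL7 probe was detected on every co-culture array and on no PA6 array. A further probe read 6.60, 5.99 and 6.84 against 8.03, 6.03 and 6.93. The other ROBO4 probes were detected on 1, 0 and 0 co-culture arrays. TEK, the angiopoietin receptor, read 8.82, 9.59 and 8.84 against 8.47, 6.38 and 7.25 and differed by 1.71 ± 0.56. It entered through the co-cultures, with 2 of the 3 PA6 arrays detecting it. The lowest co-culture array lay just above the highest PA6 array. CD34, a sialomucin of vessels and of stromal progenitors, read 7.22, 7.11 and 7.02 against 10.80, 10.76 and 10.84 and was lower in co-cultures by -3.69 ± 0.13, and FLT1, a VEGF receptor, was lower by -3.29 ± 0.31. The defining receptors and junction genes gave little signal. CDH5 (VE-cadherin), KDR (FLK1), TIE1 and ICAM2 were not detected on all arrays of either group. The 2 KDR probes were detected on 2 and 0 of the 3 co-culture arrays, the 2 CDH5 probes on 0 and 1, and the probes of TIE1 and ICAM2 on none. The part of endothelial cells in these differences was not tested.

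Blood genes were as mixed, with 3 higher and 3 lower among the 6 measured of 16 listed. The 3 higher genes were detected on no PA6 array and could only come out higher. KIT, the stem cell factor receptor, which ES cells share with blood progenitors, read 11.36, 12.04 and 11.46 against 5.43, 5.30 and 5.56, at least 28.5-fold higher. LAPTM5, a lysosomal membrane protein of blood cells, was at least 36.3-fold higher. CD14, the endotoxin co-receptor, was lower by -4.42 ± 0.45. The 3 probes of PTPRC, which defines blood cells as CD45, were detected on none of the 6 arrays.

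Epithelial genes were higher in co-cultures in 13 of 14 cases, with a median of 3.43 (2.29 with bounds), and 10 of the 14 were detected on no PA6 array. CDH1, the E-cadherin of epithelia and ES cell colonies, read 11.71, 11.63 and 11.20 against 8.04, 6.47 and 6.50 and differed by 4.51 ± 0.49. With 1 PA6 array detecting it, CDH1 entered through the co-cultures. PA6 replicate 1 was the highest of its group for this gene and still lay far below the co-cultures. SPINT1, a membrane inhibitor of serine proteases, was higher by 4.69 ± 0.28 and CLDN4, a tight junction protein, by at least 11.5-fold.

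**Figure D2:**
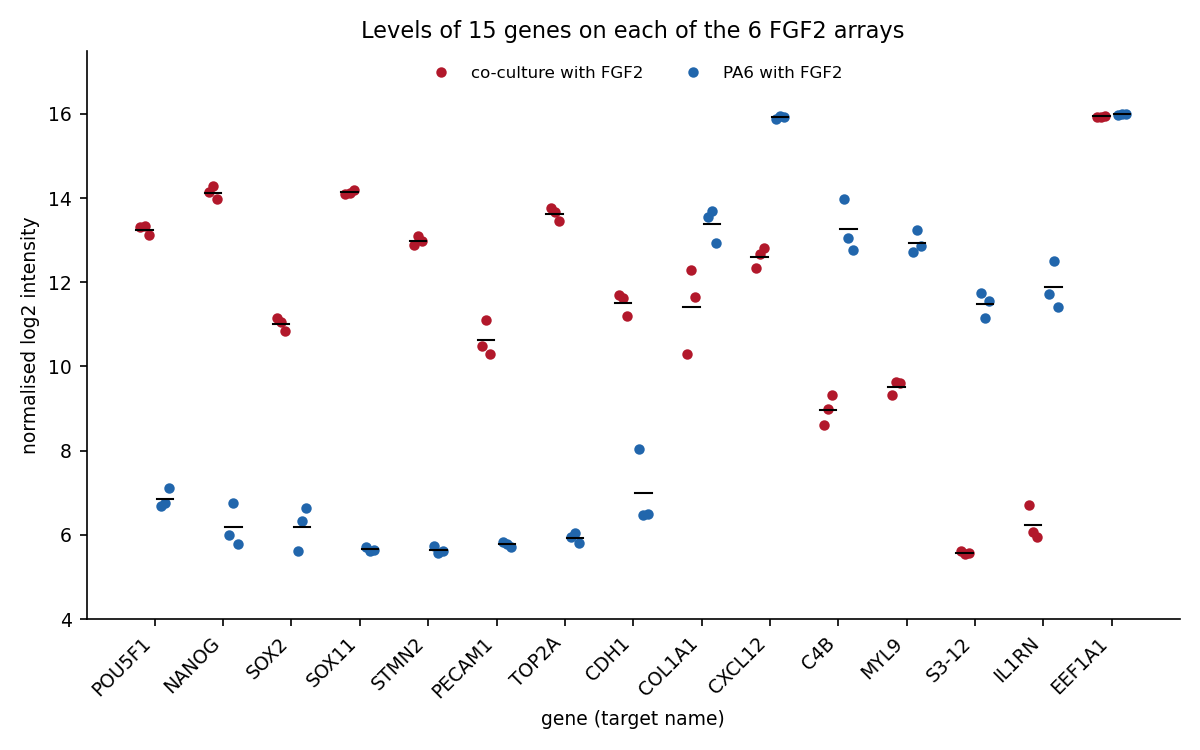
Normalised log2 intensity of 15 genes on each of the 3 co-culture arrays (red) and 3 PA6 arrays (blue) with FGF2, with bars at the group means. Genes of pluripotent, neural, cycling and epithelial cells are high in co-cultures and at or near the detection level in PA6 cells. Stromal genes run the other way, and EEF1A1 is level. In co-cultures S3-12 was detected on no array and IL1RN on 1.

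Among the genes that were lower in co-cultures, most were still detected there on some array. Of the 3296 lower genes, 352 (10.7%) were detected on no co-culture array, whereas 1493 of the 3368 higher genes (44.3%) were detected on no PA6 array. S3-12 (Plin4), a coat protein of lipid droplets in adipocytes, read 5.60, 5.55 and 5.57 in co-cultures and 11.74, 11.15 and 11.55 in PA6 cells. It was at least 32.4-fold lower, the only bound among the 10 largest falls. IL1RN, the antagonist of the interleukin 1 receptor, read 6.71, 6.07 and 5.94 against 11.71, 12.50 and 11.42, a fitted difference of -5.64 ± 0.50, with 1 of the 3 co-culture arrays detecting it and another probe giving -2.55. SCARA5, a ferritin receptor of fibroblasts, read 8.46, 9.17 and 9.38 against 14.74, 14.29 and 14.23, a difference of -5.42 ± 0.33 (adjusted p = 6.33e-09). INMT, a methyltransferase, read 11.86, 9.47 and 11.12 in co-cultures and at least 15.97 on every PA6 array, close to the brightest signals of the array. Its fitted difference was -5.16 ± 0.50, and -6.87 by its other probe, so that its place in the order is uncertain. Its co-culture arrays were spread more widely than those of SCARA5. The other large falls were ABI3BP (-5.50), an extracellular matrix protein, the chemokine CCL9 (-5.40), the cadherin CDH26 (-5.33) and the corepressor TLE2 (-5.32). SDPR (Cavin2, -5.23), a protein of caveolae, and the sulfotransferase SULT1A1 (-4.93) followed. ABI3BP was detected on 1 co-culture array, CDH26 and TLE2 on 2 each and CCL9 on all 3. The groups did not overlap in any of the 10, which was a condition of their choice.

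Matrix genes were lower together. Of 15 collagens 12 were lower and 1 higher, with a median difference of -2.27, and of 20 other genes of mesenchymal matrix and its receptors 15 were lower, with a median of -1.71. COL1A1, a chain of type I collagen, read 10.31, 12.28 and 11.66 against 13.54, 13.69 and 12.93 and differed by -1.97 ± 0.43 (adjusted p = 0.000953), with co-culture replicate 1 the lowest. COL15A1, a collagen of basement membrane zones, was lower by -3.24 ± 0.24. COL18A1, the source of endostatin, ran against the rest with 12.80, 12.45 and 12.52 against 11.34, 11.25 and 11.16, and its difference of 1.34 ± 0.18 was reduced to 0.97 and not called under median scaling. S100A4, a calcium binding protein of fibroblasts, was lower by -4.65 ± 0.29, THBS2, a thrombospondin, by -3.52 ± 0.19 and PDGFRA, a receptor that marks mesenchyme, by -3.08 ± 0.22. DCN (decorin) read 15.37, 14.98 and 15.29 against 15.88, 15.87 and 15.99, and its difference of -0.70 was under the minimum fold, although the mean over all DCN probes gave -2.91. Of the 9 measured bone and cartilage genes 7 were lower, led by OGN (osteoglycin, -3.99 ± 0.45) and including SOX9, a master factor of cartilage (-1.51 ± 0.13). No co-culture array detected 3 of the 9, which could only come out lower. AKP2 (Alpl), an alkaline phosphatase of bone that is also a classical stain for ES cells, was higher by 3.83 ± 0.34. SPP1 (osteopontin) read 13.02, 13.17 and 12.99 against 12.27, 12.44 and 11.96, and its difference of 0.84 ± 0.37 was under the minimum fold (adjusted p = 0.0559).

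Chemokines and complement were the lists with the lowest medians. Of 14 chemokines and cytokines 10 were lower (median -3.16), and of 12 acute phase and complement genes 11 were lower (median -2.88). CXCL12, the retention factor of blood stem cells that marrow stroma secretes, read 12.33, 12.66 and 12.81 against 15.87, 15.96 and 15.92 and differed by -3.31 ± 0.20 (adjusted p = 6.64e-09). Its PA6 signals were close to the brightest of the array, so that the size of this difference is uncertain. The monocyte chemokine CCL7 was lower by -3.89 ± 0.43. Complement C4B read 8.60, 8.98 and 9.32 against 13.98, 13.06 and 12.77, a difference of -4.30 ± 0.49, and C1S and C3 were lower by -3.64 ± 0.16 and -2.75 ± 0.37. The acute phase gene that was not called was SERPINA3N (0.38, adjusted p = 0.443), whose groups overlapped.

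Of 10 contractile genes of smooth muscle 8 were lower, with a median of -1.95. MYL9, a myosin light chain, was lower by -3.43 ± 0.19 and LMOD1, an actin nucleator of smooth muscle, by at least 8.15-fold. ACTA2, smooth muscle actin, read 11.85, 14.10 and 13.28 against 14.30, 14.90 and 14.66. Its difference of -1.54 ± 0.45 rested on co-culture replicate 1, without which it was -0.93 and not called. DES (desmin) was higher by 2.47 ± 0.31. Of 11 proteinases and inhibitors 6 were lower and 1 higher. The membrane proteinase MMP14 read 12.28, 12.57 and 12.31 against 15.66, 15.45 and 15.41, a difference of -3.12 ± 0.16, and the gelatinase MMP2, which MMP14 activates, was lower by -2.61 ± 0.15. TIMP3, an inhibitor of both, differed by -0.25 ± 0.16 (adjusted p = 0.179).

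Adipocyte genes had no common direction, with 4 lower, 3 higher and 3 not called among 10, and a median of -0.08 that became 0.27 with cyclic loess. No PA6 array detected 2 of the 10 and no co-culture array 3, so the direction of these was set by the choice of members. PPARG, the nuclear receptor that drives fat cell formation and which 1 co-culture array detected, read 6.18, 5.93 and 6.70 against 10.04, 10.64 and 10.68 and was lower by -4.18 ± 0.56, and AGT (angiotensinogen) was at least 16-fold lower. LPL (lipoprotein lipase) and APOE (apolipoprotein E), which cells outside fat also make, were higher, LPL by 4.02 ± 0.96 and APOE by at least 26-fold.

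**Figure D3:**
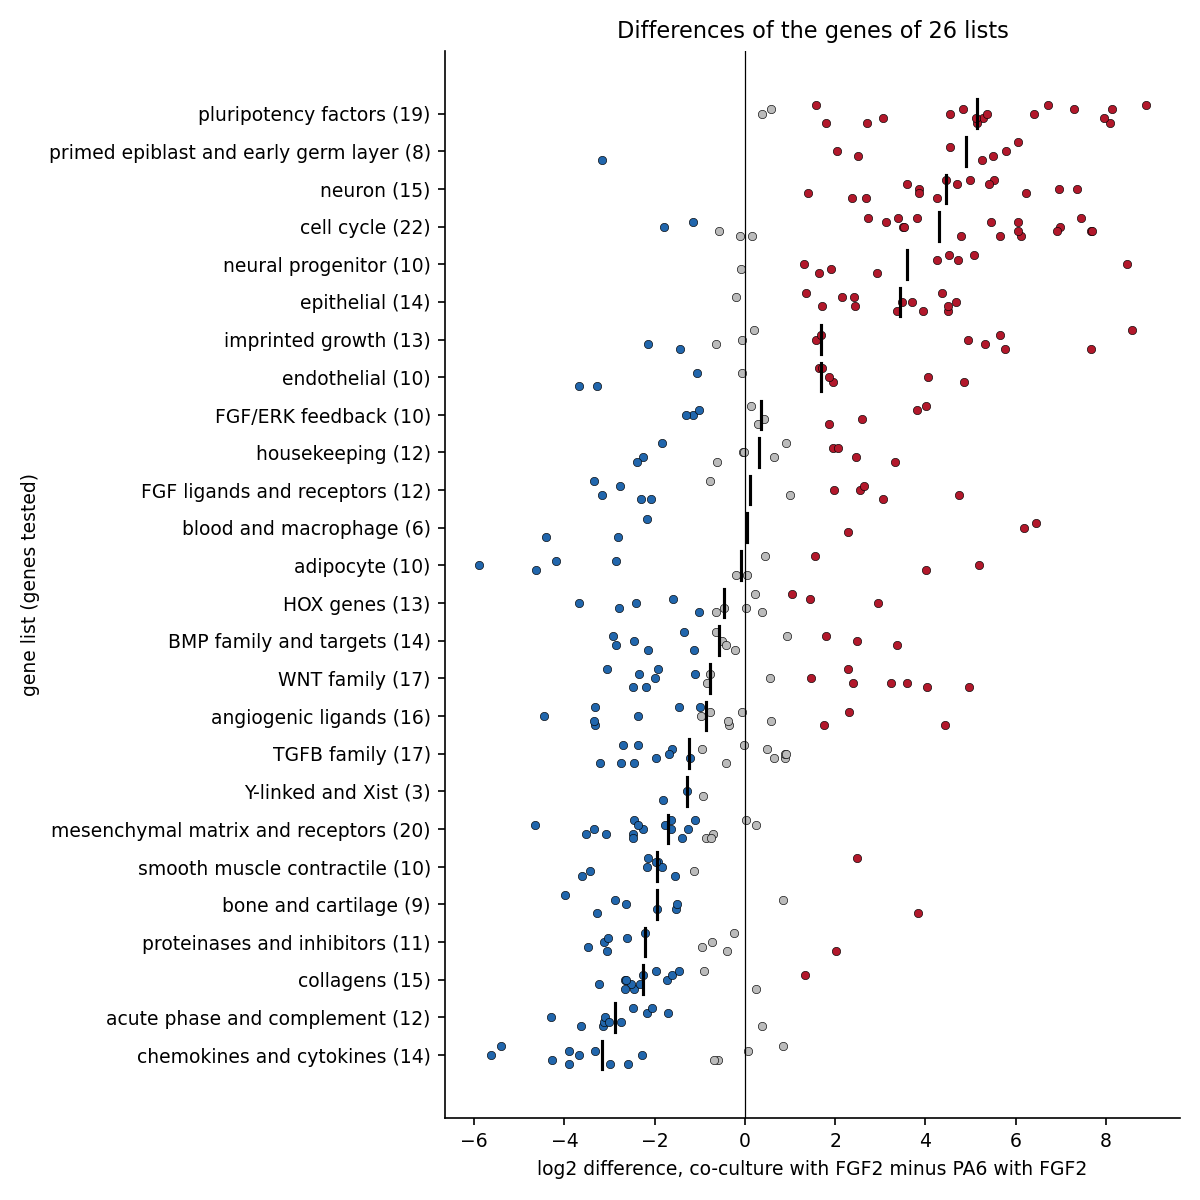
Log2 difference (co-culture with FGF2 minus PA6 with FGF2) of each measured gene in 26 lists, ordered by the list median (black bar), with called genes in red (higher) or blue (lower) and genes not called in grey. Lists of pluripotent, neural, cycling and epithelial cells lie at the top, and matrix, complement and chemokine lists at the bottom. Signalling and housekeeping lists lie between, with medians from -1.23 (TGFB family) to 0.36 (FGF/ERK feedback).

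Signalling genes were called in both directions. FGF ligands and receptors were called in 10 of 12 cases (83.3%, beside 50.1% of all genes), 5 higher and 5 lower. No PA6 array detected 6 of the 12, which could only come out higher. Their median of 0.12 was -0.05 under median scaling and -0.38 with undetected genes at their bound. FGF4, the ligand made by pluripotent cells, read 8.71, 8.86 and 8.69 against 6.20, 5.35 and 5.54, at least 3.92-fold higher, and FGF13, an intracellular member of the family in neurons, was at least 13.2-fold higher. FGF7, a stromal ligand for epithelia, was lower by -3.16 ± 0.28, and the receptor FGFR1 by -2.77 ± 0.33. FGFR2 differed by -0.77 ± 0.19, under the minimum fold (adjusted p = 0.00276), and FGFR3 was not detected on all arrays of either group. Targets and brakes of the FGF/ERK cascade were also split, with 4 higher and 3 lower of 10 (70% called). The ETS factors ETV5 (4.01 ± 0.34) and ETV4 (at least 7.71-fold) and the ERK phosphatase DUSP6 (2.60 ± 0.26) were higher in co-cultures. The immediate early gene EGR1 was lower by -1.15 ± 0.27, and by -0.96 and not called without co-culture replicate 2. Both groups had received FGF2, so this comparison measures differences between cultures. Whether they involve responses to the factor was not tested here.

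In the TGFB family 9 of 17 genes were lower, with a median of -1.23. The share called, 52.9%, was near the 50.1% over all genes. The ligand TGFB1 read 6.88, 7.64 and 7.85 against 9.84, 9.71 and 9.91 and differed by -2.36 ± 0.26 (adjusted p = 2.27e-06), with every co-culture array below every PA6 array. Its signalling receptor TGFBR2 was lower by -2.71 ± 0.22, whereas the partner receptor TGFBR1 differed by 0.50 ± 0.16 and CTGF (Ccn2), a target gene, by 0.90 ± 0.23, both under the minimum fold. CTGF passed it when co-culture replicate 1 (1.05) or PA6 replicate 2 (1.06) was left out. In the BMP family 6 of 14 genes were lower and 3 higher (64.3% called). The ligand BMP4 itself read 10.07, 10.82 and 10.89 against 12.66, 12.99 and 12.58 and differed by -2.15 ± 0.30 (adjusted p = 1.78e-05), while BMP7 was at least 4.56-fold higher. ID1, a direct BMP target, was higher by 2.49 ± 0.52 and SMAD6, an inhibitory SMAD, lower by -2.93 ± 0.20. Of 17 WNT genes 7 were higher and 7 lower (82.4% called). No PA6 array detected 6 of the 17, which could only come out higher, and no co-culture array detected 1, which could only come out lower. The ligand WNT7B was at least 12-fold and the feedback gene AXIN2 at least 9.23-fold higher, and the secreted antagonist SFRP1 (-2.20 ± 0.22) and the receptor FZD2 (-2.34 ± 0.15) were lower. Of 16 angiogenic ligands 3 were higher and 7 lower (62.5% called). No PA6 array detected 2 of the 16, which could only come out higher. VEGFC, a lymphatic growth factor, read 10.13, 9.91 and 10.03 against 5.90, 5.45 and 5.42, at least 9.44-fold higher, and ANGPTL4 was higher by 2.31 ± 0.28. HGF read 7.32, 7.13 and 8.17 against 11.85, 11.95 and 12.15, a difference of -4.45 ± 0.33, and FIGF (VEGF-D, -3.34 ± 0.27) and ANGPT1 (-3.33 ± 0.23), the ligand of TEK, were lower too. PA6 cells alone thus had the higher level of HGF, FIGF, ANGPT1, TGFB1 and BMP4, and the co-cultures that of VEGFC.

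Imprinted growth genes were higher in 8 of 13 cases, with a median of 1.68 (76.9% called in either direction, beside 50.1% of all genes). No PA6 array detected 5 of the 13, which could only come out higher. PEG3 was at least 24.3-fold higher. DLK1, a regulator of fat cell precursors, was lower by -2.14 ± 0.18, and IGF2, high in both cultures, differed by 0.20 ± 0.30 (adjusted p = 0.547, and -0.11 under median scaling). HOX genes, which mark position along the body axis, were lower in 5 and higher in 3 of 13 cases (61.5% called). No PA6 array detected 2 of the 13, which could only come out higher. HOXA5 read 8.34, 9.15 and 8.63 against 12.17, 12.61 and 12.40 (-3.69 ± 0.28), HOXD8 was lower by -2.79 ± 0.31 and HOXB5 was higher by 2.95 ± 0.88, with co-culture arrays that ranged from 7.24 to 10.42. HOXB4 (-0.46 ± 0.30) was not called. Of 12 housekeeping genes 4 were higher, 3 lower and 5 not called (58.3% called), with a median of 0.31 that was -0.05 under median scaling. PPIA (-0.03 ± 0.11, and 0.06 with cyclic loess) and EEF1A1 (-0.05 ± 0.10) were not called, while GAPDH was higher by 1.96 ± 0.18 and HPRT1 and B2M were lower by -2.40 ± 0.25 and -2.26 ± 0.15. Of 3 measured genes in a list of Y-linked genes and Xist 2 were lower, among them DDX3Y, which was detected in both cultures and differed by -1.81 ± 0.17.

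The gap between co-culture and PA6 was also measured without growth factors (45.9% of the 13304 genes called) and with BMP4 (44.3%). Of the 6664 genes called with FGF2, 5110 were called without factors in the same direction, 13 in the opposite direction and 1541 were not called. To ask where the gap itself depended on FGF2, the gap with FGF2 was tested against that without factors in 1 model over all 16 arrays. The gaps differed for 1120 genes (8.42%), being higher with FGF2 for 732 (5.5%) and lower for 388 (2.92%). Genes seen without factors alone were not among the members. Where a level lay at background, the difference between gaps is that of the fit and not a bound. The co-culture levels moved more than those of PA6 in 695 of the 732 (94.9%) and 311 of the 388 (80.2%). For the 732, the median change with FGF2 was 1.61 in co-cultures and -0.12 in PA6. Under median scaling 727 genes were called and the higher share was 78% instead of 65.4%, whereas among genes detected on all 6 FGF2 arrays 279 were higher and 245 lower (53.2%). Of the 732 genes, 389 were detected on no PA6 array with FGF2.

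Of the pluripotency genes, 15 of 19 had a higher gap with FGF2 than without factors, with a median of 2.24. Against BMP4, 2 of the 19 had a higher gap with FGF2, and with BMP4 the gap was 7.26 for NANOG, -0.33 for KLF4 and 0.37 for TBX3, each above its value without factors. The gap of NANOG was wider by 2.63 (adjusted p = 0.0124), that of ESRRB by 2.95 (adjusted p = 7.19e-05) and that of POU5F1 by 2.24 ± 0.56 (adjusted p = 0.0276), whose call was lost without co-culture replicate 2 of the group without factors (adjusted p = 0.101). KLF4 stood at -3.63 without factors and at 0.58 with FGF2, a difference between gaps of 4.20 ± 0.69 (adjusted p = 0.00256). TBX3 had a gap of 1.57 with FGF2 and one lower by 3.56 without factors (adjusted p = 0.00133). For both genes PA6 had the higher mean without factors and the co-cultures with FGF2. Of the measured genes 2 of 10 endothelial and 2 of 6 blood genes were called. LAPTM5 differed by 4.13 ± 0.59 (adjusted p = 0.00108), PECAM1 by 3.26 (adjusted p = 0.000627), KIT by 2.00 (adjusted p = 0.00207) and TEK by 3.21 (adjusted p = 0.0346, and 0.116 without co-culture replicate 2 of the group without factors). Of the neural genes, 4 of 10 progenitor and 2 of 15 neuronal genes had a lower gap, and 6 and 13 were not called. The differences between gaps were -0.16 for STMN2, 0.24 for MTAP2 and 0.05 for DCX, none of which passed the test. HES5 fell from a gap of 6.87 to 4.71 (-2.16, adjusted p = 5.5e-05), yet its level in co-cultures with FGF2 remained far above that of PA6.

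Among genes whose 3 co-culture and 3 PA6 arrays with FGF2 did not overlap, which leaves out KLF4, the 5 with the largest increase in gap were LAPTM5 (4.13), ASZ1 (4.08), TMEM92 (4.04), ZSCAN4C (3.99) and AURKC (3.96). ZSCAN4C, a marker of the rare ES cells that resemble the cleavage stage embryo, read 12.25, 13.00 and 12.58 with FGF2 against 5.32, 5.55 and 5.41 in PA6, and its mean in co-cultures without factors was 8.86 (difference between gaps 3.99 ± 0.30, adjusted p = 2.64e-05). With BMP4 its mean in co-cultures was 12.88, and the gaps with FGF2 and BMP4 differed by -0.07 (adjusted p = 0.94). ASZ1, a germ cell gene of the piRNA pathway, read 9.48, 11.29 and 9.10 against 5.72, 5.73 and 5.44, and had a gap of 0.25 without factors. AURKC, the Aurora kinase of oocytes and spermatocytes, read 11.75, 12.39 and 12.20 against 5.74, 5.59 and 5.38. These 3 genes were undetected on all 3 PA6 arrays with FGF2. The 5 largest decreases were ONECUT2 (-2.75 ± 0.54), Pdzph1 (-2.73), GREB1 (-2.66), MATN4 (-2.52) and DPYSL3 (-2.42). ONECUT2, a factor of motor and other neurons, read 8.30, 7.56 and 9.10 against 7.04, 6.41 and 7.31 with FGF2, and its gap was 4.15 without factors. DPYSL3, a protein of axon growth, read 11.48, 11.92 and 11.93 against 8.48, 8.59 and 8.08. Its level moved more in PA6, from a mean of 6.52 without factors to 8.38, than in co-cultures, from 12.34 to 11.78. MATN4, a matrilin of cartilage matrix, had a gap of 0.71 without factors and of -1.81 with FGF2. Its mean moved from 11.79 without factors to 10.31 in co-cultures, and from 11.08 to 12.12 in PA6.

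Of the genes whose gaps differed, 59 of the 732 and 136 of the 388 were lower in co-cultures than in PA6 with FGF2. Among 81 genes of the collagen, matrix, smooth muscle, chemokine, acute phase and adipocyte lists, of which 60 were lower and 5 higher in co-cultures with FGF2, limma called none for a difference between the gaps with and without FGF2. At an unadjusted p under 0.05, 3 were higher and 5 lower, beside 3020 of all 13304 genes in either direction. The lowest adjusted p among the 81 was 0.163. In the bone and cartilage list 1 of 9 genes was called, AKP2 (2.40, higher), and 1 of 11 in the proteinase list.

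**Figure D4:**
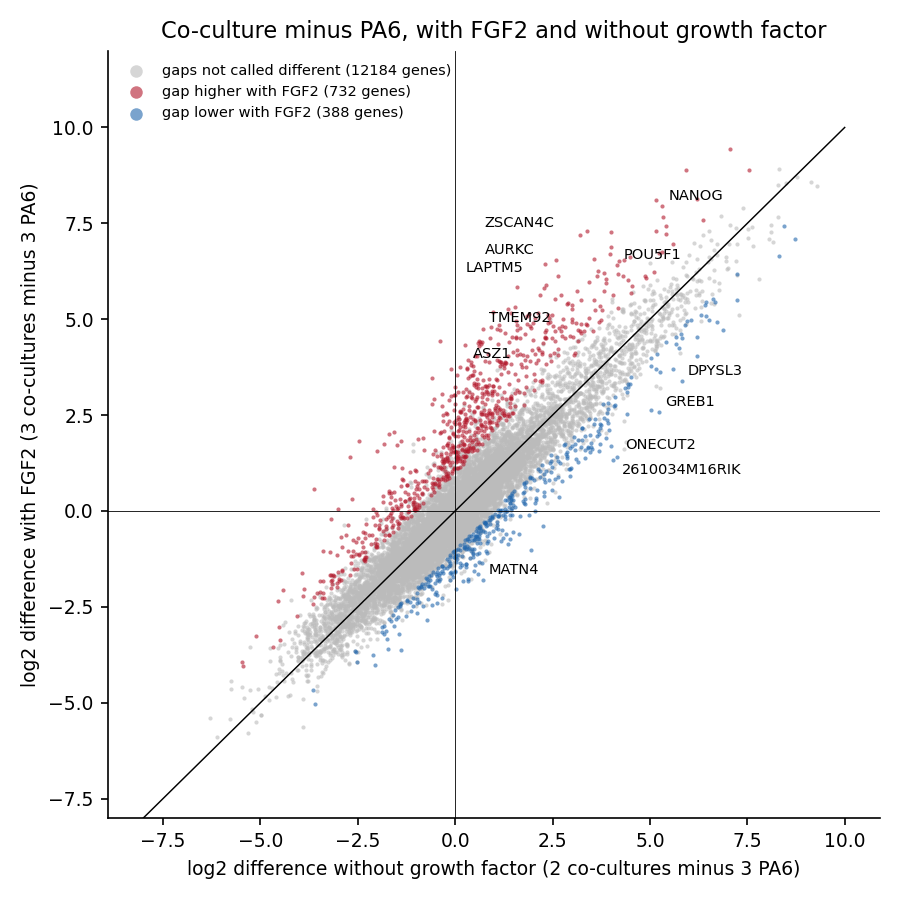
Log2 difference of co-culture minus PA6 without growth factors (horizontal axis) and with FGF2 (vertical axis) for the 13304 genes, with the line of equal gaps and genes whose gaps were called different in red (732) and blue (388). The red points outnumber the blue ones and reach farther from the line, and Pdzph1 stands under its older clone name.

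Against BMP4, fewer genes were told apart. The gap with FGF2 differed from that with BMP4 for 296 genes (2.22%), higher for 156 (1.17%) and lower for 140 (1.05%). This count rested on single arrays. Where 1 of 2 co-culture arrays is left out, with BMP4 here or without factors above, the lone array is assumed to vary like the other groups. It was 76 without co-culture BMP4 replicate 2, 132 without co-culture FGF2 replicate 2, 175, 179 and 143 without PA6 FGF2 replicates 1, 2 and 3, and 181 and 189 without PA6 BMP4 replicates 1 and 3, whereas it was 408 without co-culture BMP4 replicate 1. The higher share was 52.7%, and 38.1% under median scaling, where the median over all genes moved from -0.04 to -0.33. Among genes detected on all 6 FGF2 arrays 14 were higher and 55 lower (20.3%), and 120 of the 156 higher genes were detected on no PA6 array with FGF2. The co-culture level moved more than that of PA6 in 138 of the 156 (88.5%) and in 98 of the 140 (70%).

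HOX genes were the list with the most calls here, 5 of 13, all with a lower gap under FGF2. HOXC6, a gene of thoracic levels, read 7.11, 7.40 and 6.52 in co-cultures with FGF2 and had a mean of 11.64 in co-cultures with BMP4, with no PA6 array of either group detecting it (-4.44 ± 0.45, adjusted p = 0.00161). HOXC9 (-3.88 ± 0.56, adjusted p = 0.0104) had means of 6.61 and 10.53. WNT4, a ligand of kidney and gonad development, read 6.81, 7.70 and 7.53 with FGF2 and had a mean of 9.97 with BMP4 (-2.89 ± 0.36, adjusted p = 0.00467). SERPINA3H (-3.62) and TMEM176A (-2.86) were the other genes among the 5 with the largest decrease (again without overlap). For both, the PA6 level was part of the difference. With FGF2 and with BMP4, SERPINA3H had means of 7.98 and 5.71 in PA6, and of 6.42 and 7.76 in co-cultures. TMEM176A had means of 9.93 and 8.60 in PA6, and of 6.85 and 8.38 in co-cultures. Without co-culture BMP4 replicate 2, TMEM176A lost its call (-2.09). In the other direction TMEM130 read 9.76, 10.68 and 10.69 with FGF2 against a mean of 6.91 with BMP4 (3.60 ± 0.58, adjusted p = 0.0182). Of the neuronal genes 3 of 15 had a higher gap with FGF2, among them DCX and MAPT, whose calls were lost without co-culture BMP4 replicate 2 (adjusted p = 0.135 and 0.177).

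In 3 of the 4 genes named for a large increase, the PA6 level was part of the difference. CLSTN3 (4.61, adjusted p = 0.0478) read 5.60 on average in PA6 with FGF2 and 9.04 in PA6 with BMP4, and DMRTC2 (4.79 ± 1.26, adjusted p = 0.0911) 5.90 and 9.19. SYN2 (3.65, adjusted p = 0.0904) was likewise higher in PA6 with BMP4, with a mean of 7.48 against 5.93. These calls were close to the threshold. When each of the 16 arrays was left out in turn, DMRTC2 and SYN2 lost the call in 12 cases each and CLSTN3 in 3, the last without co-culture FGF2 replicate 2, co-culture BMP4 replicate 2 or PA6 FGF2 replicate 3. HOXC6, HOXC9, WNT4, SERPINA3H and TMEM130 were called in all 16.

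**Figure D5:**
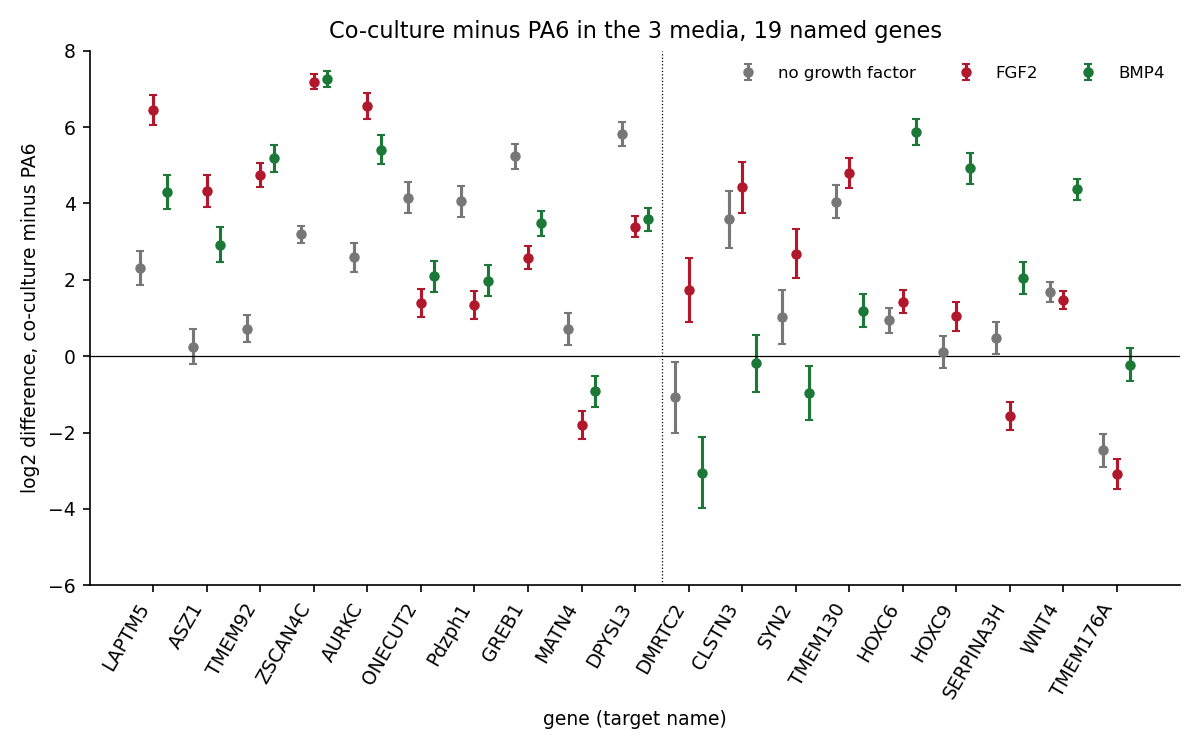
Log2 difference of co-culture minus PA6 (points) with its SE (bars) without growth factor (grey), with FGF2 (red) and with BMP4 (green) for the 10 genes named for the comparison with no factor (left of the dotted line) and the 9 named for the comparison with BMP4 (right). Among the left genes FGF2 and BMP4 lie on the same side of the value without factor, and HOXC6, HOXC9 and WNT4 stand out in BMP4.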

How the data were processed

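RNA of 16 cultures was measured on Illumina MouseWG-6 v2.0 BeadChips, 1 array per culture. The authors deposited non-normalized average bead intensity values and a detection p-value per probe, exported from GenomeStudio 2011.01 per the submitters' processing notes. Their own cubic spline values were not used. The number of arrays limits the precision. The files name no genome build, and 6 unnamed rows were dropped.

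Intensities were background corrected with normexp, quantile normalized with an offset of 16 and put on the log2 scale (neqc, limma 3.58.1, R 4.3.3). Quantile normalization gives all arrays 1 distribution, so differences are relative. Probes were selected by detection p, and for target names with several probes the one brightest on average across all 16 arrays was kept. Of the 13304 genes 11285 (84.8%) matched a mouse gene table, used for names. Linear models (limma) in 6 groups with 10 residual degrees of freedom gave the differences, SE and adjusted p-values, which measure the spread between these wells, which may be technical. Names are the array's target names.

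The members, gene lists and tests were chosen with earlier results of these data known. The genes named are, for each test, the 10 or 5 with the largest rise and fall among called genes whose FGF2 groups did not overlap and whose name matched, 2 to 4 of each list with well-known members that did not pass, and genes the study measured by PCR. A gene of this rule is not reported here. Other list members named were chosen after their values were seen. The fits were tested on simulated data. Alternatives varied the thresholds, detection filter, scaling, background correction, offset, probe choice, variance prior, blocks and arrays.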

Additional observations from a re-analysis of the deposited data

Results flagged for a closer look

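The difference between co-culture and PA6 depended on the medium for 1120 genes when FGF2 was set against no factor, and for 296 genes when FGF2 was set against BMP4, each by a test of the difference between gaps in limma. Of the named genes, the gap was higher with FGF2 than without factors for LAPTM5 (4.13), ASZ1 (4.08), TMEM92 (4.04), ZSCAN4C (3.99) and AURKC (3.96), and lower for ONECUT2 (-2.75), Pdzph1 (-2.73), GREB1 (-2.66), MATN4 (-2.52) and DPYSL3 (-2.42). Set against BMP4, it was higher with FGF2 for DMRTC2 (4.79), CLSTN3 (4.61), SYN2 (3.65) and TMEM130 (3.60), and lower for HOXC6 (-4.44), HOXC9 (-3.88), SERPINA3H (-3.62), WNT4 (-2.89) and TMEM176A (-2.86). All values are log2 differences. Both tests share the arrays of the FGF2 gap.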

How the results depend on the processing

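Of 128 named genes called between co-culture and PA6 with FGF2, 109 were called under all alternatives that tested them, and 2819 of 2858 values kept direction and call, 39 lost the call and 0 reversed. Without 1 array in turn the counts of called genes were 6548 to 6780 for this comparison, 943 to 1290 against the gap without factors and 76 to 408 against the gap with BMP4. With no minimum fold 10327 genes were called with FGF2. With a log2 minimum of 2 the counts were 2964, 315 and 69, and with detection required on all 6 arrays 3763, 524 and 69, where fewer genes were tested. Median scaling gave 727 and 134 for the differences between gaps, and against BMP4 an adjusted p under 0.05 gave 127 and no detection filter 187. The cause was not tested for the scaling. Values near 0 changed sign: IGF2 was -0.11 under median scaling, PPIA 0.064 with cyclic loess and -0.073 to 0.036 without 1 array in turn (0.036 without PA6 FGF2 replicate 2), and list medians were 0.27 for adipocyte genes with cyclic loess and, under median scaling, -0.053 for FGF ligands and receptors and -0.047 for housekeeping genes. Replicate numbers were shared between groups, and deviations of same-numbered arrays correlated at 0.105, 0.0761 and 0.128, so that not all were over 0.1 and the numbers were not taken as pairs, although each co-culture array correlated best with its own number. With a replicate block 6667, 1202 and 373 genes were called, and 6675 with the block in the fit of the 6 arrays. A block on the run of columns in the table, chosen after seeing the data, gave 6668, 1158 and 383. SYN2 was not called against BMP4 with the replicate block (adjusted p = 0.113) or the run block (adjusted p = 0.105). Signals near the detection level limit the low genes.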
